A study of Homo sapiens with 6 samples.

Results

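The snoRNA host genes are noncoding genes whose introns carry small nucleolar RNAs. The 10 described here, SNHG1, SNHG5, SNHG6, SNHG7, SNHG8, SNHG12, SNHG15, SNHG16, GAS5 and ZFAS1, were chosen by symbol and all 10 had a row among the 19021 of the deposited gene table. Levels were measured by RNA sequencing of polyadenylated RNA from Huh7, a human hepatocellular carcinoma line labelled wild type, in 3 libraries of cells given DMSO, the solvent, and 3 of cells given carfilzomib, a proteasome inhibitor, each for 24 h. No dose is given in the sources used here. The labels do not tell whether the replicates were separate cultures, and p-values thus cover the spread between libraries, which may be technical. In bulk RNA, fewer cells and less RNA per cell cannot be told apart. Library totals lay between 38386581 and 39651170 reads. All 8 hepatocyte lineage markers were present, from 21.5 FPKM (TF) upward, with a summed level of 9670 to 9845 FPKM with DMSO and 4102 to 4239 with carfilzomib. Of 10 markers of other cell types, 5 stayed below 1 FPKM, among them PTPRC of leukocytes and VWF of endothelium at 0.0202 or less, and the summed level was 167 to 174 FPKM with DMSO and 248.9 to 251.2 with carfilzomib. Within that sum KRT19 went from 83.3 to 161 FPKM and CD68 from 33.2 to 46.9, whereas EPCAM went from 44.1 to 35.1, COL1A2 from 5.93 to 3.41 and PECAM1 from 3.94 to 2.58. Their part in the differences below was not tested.

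A snoRNA is cut out of the spliced intron of its host, after which it joins a ribonucleoprotein that modifies ribosomal RNA. Box C/D snoRNAs guide methylation of the ribose and H/ACA snoRNAs guide pseudouridylation. What is left is the spliced host transcript, which poly(A) sequencing measures along with any unspliced polyadenylated RNA of the host. Many spliced host transcripts reach ribosomes, carry only short reading frames and are broken down by nonsense-mediated decay, and many hosts, like ribosomal protein genes, start transcription at a terminal oligopyrimidine (TOP) tract, a C followed by a run of pyrimidines. GAS5 was named for its accumulation in growth-arrested cells.

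In the RefSeq annotation (GRCh38.p14) the 10 hosts held 37 snoRNAs, from 1 in SNHG6, SNHG8 and SNHG15 to 11 in GAS5. SNHG1 (9), SNHG5 (2), SNHG6 (1), SNHG16 (3) and ZFAS1 (3) held box C/D snoRNAs. Of the 9 in SNHG1, 1 has neither a SNORD nor a SNORA name. Its class was not determined, and SNHG1 is placed here by its 8 SNORDs. SNHG7 (2), SNHG8 (1) and SNHG15 (1) held H/ACA snoRNAs, and GAS5 and SNHG12 (4) held both kinds. Of 1199 snoRNA symbols in that annotation, 0 were rows of the table, so the values below are of the host genes and say nothing of the snoRNAs themselves. Spliced and unspliced host RNA are not told apart in these values. To show what the hosts of the largest differences carry, the following are snoRNAs of ZFAS1 (the SNORD12 family, guides of large-subunit ribosomal RNA), of SNHG1 (SNORD27) and of SNHG8 (SNORA24). They are read 5′ to 3′ from GENCODE 29 transcripts (GRCh38). Capitals mark box C (TGATGA) and box D (CTGA) in the SNORDs and the ACA box in SNORA24.
SNORD12, chr20:49280683-49280772, plus strand: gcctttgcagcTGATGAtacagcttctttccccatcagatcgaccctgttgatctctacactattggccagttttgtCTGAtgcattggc
SNORD12B, chr20:49280319-49280409, plus strand: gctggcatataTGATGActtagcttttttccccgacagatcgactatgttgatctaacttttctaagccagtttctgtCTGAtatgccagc
SNORD12C, chr20:49278940-49279028, plus strand: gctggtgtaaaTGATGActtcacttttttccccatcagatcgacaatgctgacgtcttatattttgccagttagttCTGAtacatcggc
SNORD27, chr11:62855012-62855083, minus strand: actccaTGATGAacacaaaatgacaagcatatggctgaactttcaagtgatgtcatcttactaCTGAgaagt
SNORA24, chr4:118279190-118279320, plus strand: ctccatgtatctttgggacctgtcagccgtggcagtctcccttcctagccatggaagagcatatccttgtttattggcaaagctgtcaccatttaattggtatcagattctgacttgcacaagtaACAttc
The 3 ZFAS1 snoRNAs share a run of at most 9 bases, cagatcgac, between their boxes.

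**Figure D1:**
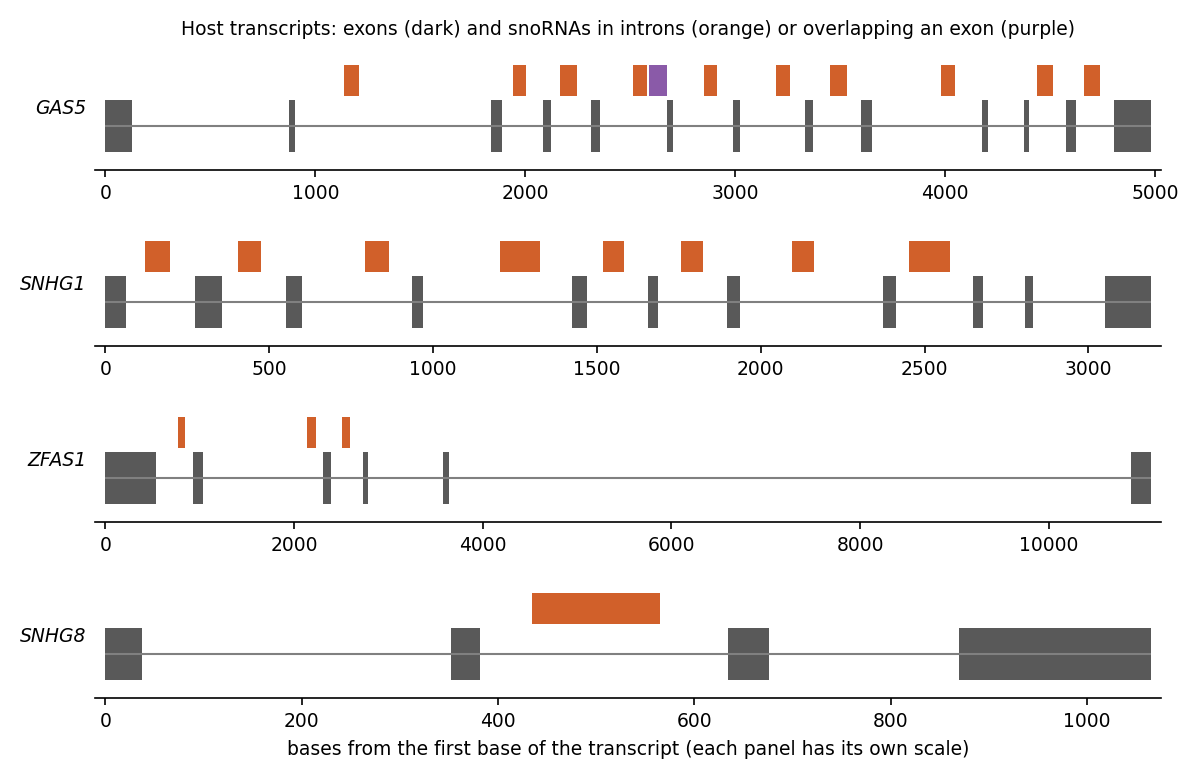
Exons (dark boxes) and snoRNAs (coloured boxes above) of 4 host genes, in bases from the first base of the GENCODE 29 basic transcript with the most exons. The snoRNA positions are from RefSeq. In these transcripts the snoRNAs lie in introns (10 in GAS5, 8 in SNHG1, 3 in ZFAS1 and 1 in SNHG8), except for 1 in GAS5 that overlaps an exon. SNORD25 of SNHG1 lies before the first base of the drawn transcript and is not shown.

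The starts of 8 hosts were in the RefSeq promoter table and are shown because TOP tracts at the start are a known feature of this class. Each line gives 40 bases before and 40 bases after the annotated start (GRCh38.p14), 5′ to 3′. The capitals in the last 40 bases mark a TOP-like start, or the start base alone where there is none, and capitals before it mark TATAA.
SNHG5, chr6:85678694-85678773, minus strand: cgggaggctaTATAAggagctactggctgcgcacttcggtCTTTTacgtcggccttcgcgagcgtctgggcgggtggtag
SNHG12, chr1:28581834-28581913, minus strand: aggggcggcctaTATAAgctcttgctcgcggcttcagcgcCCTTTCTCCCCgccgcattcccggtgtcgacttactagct
ZFAS1, chr20:49278602-49278681, plus strand: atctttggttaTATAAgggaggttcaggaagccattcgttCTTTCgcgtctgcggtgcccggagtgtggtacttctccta
SNHG7, chr9:136728145-136728224, minus strand: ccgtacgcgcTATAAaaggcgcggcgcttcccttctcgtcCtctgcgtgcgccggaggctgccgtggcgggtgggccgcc
SNHG8, chr4:118278722-118278801, plus strand: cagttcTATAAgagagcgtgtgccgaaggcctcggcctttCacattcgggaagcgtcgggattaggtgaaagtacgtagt
SNHG1, chr11:62855846-62855925, minus strand: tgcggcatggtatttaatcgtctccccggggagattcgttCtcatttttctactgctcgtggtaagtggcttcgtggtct
SNHG16, chr17:76557724-76557803, plus strand: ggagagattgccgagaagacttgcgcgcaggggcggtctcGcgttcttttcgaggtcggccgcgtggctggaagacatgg
GAS5, chr1:173869006-173869085, minus strand: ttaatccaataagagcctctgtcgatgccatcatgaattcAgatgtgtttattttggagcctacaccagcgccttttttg
A TOP-like start, taken as a C at the annotated start followed by at least 4 bases that are each C or T, was found in SNHG5, SNHG12 and ZFAS1, and in 4.04% of all 27305 promoters in the table, on the gene's strand. Among ribosomal protein genes it was found in 43 of 63 (68.2%). Over all GENCODE 29 transcripts of the 10 hosts, 23 of 136 (16.9%) began this way, against 2.41% of all 206694 transcripts. They came from 8 of the hosts, all but SNHG7 and SNHG15. GAS5 had 6 of 29, SNHG16 2 of 8, SNHG8 1 of 5 and SNHG1 1 of 25, although their starts shown above are not TOP-like. TATAA lay in the 40 bases before the start in 5 of the 8 hosts, SNHG5, SNHG7, SNHG8, SNHG12 and ZFAS1, and in 4.67% of all promoters on the gene's strand (5.83% on either strand, with the same 5 hosts). This motif was chosen after the sequences were seen. In the whole promoter windows of 250 bases before to 50 after the start, searched on both strands, the MYC motif CACGTG was in SNHG7 alone (7.43% of all promoters), the heat shock motif GAANNTTC was in GAS5 alone (6.87%), and TGACGTCA was in 0 of 8 (1.98%). No match overlapped another in these hosts, and a match is a description of letters, not a site.

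With carfilzomib, 7 of the 10 hosts differed from DMSO, in both directions. ZFAS1, GAS5 and SNHG15 rose, SNHG8, SNHG1, SNHG7 and SNHG16 fell, and SNHG5, SNHG6 and SNHG12 did not pass the test. Differences are in log2(FPKM + 1), carfilzomib minus DMSO, where FPKM is the fragment count scaled by gene length and library total, and a call is an adjusted p under 0.05 by limma over all 11153 genes with a mean of at least 1 FPKM. This scale understates the change of low genes. All 10 hosts passed that filter. Among all genes tested, 81.6% were called, 36.7% higher and 44.9% lower. For a list of 10, the 7 called hosts, 3 higher and 4 lower, lie near those shares. The groups did not overlap in those 7 hosts, against 82.8% of all genes. The median difference was -0.13 over the hosts and -0.07 over all genes, and the median absolute difference 0.25 and 0.40. A difference of at least 1 with a call was found in 1 host, SNHG8, and in 13.1% of all genes.

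**Figure D2:**
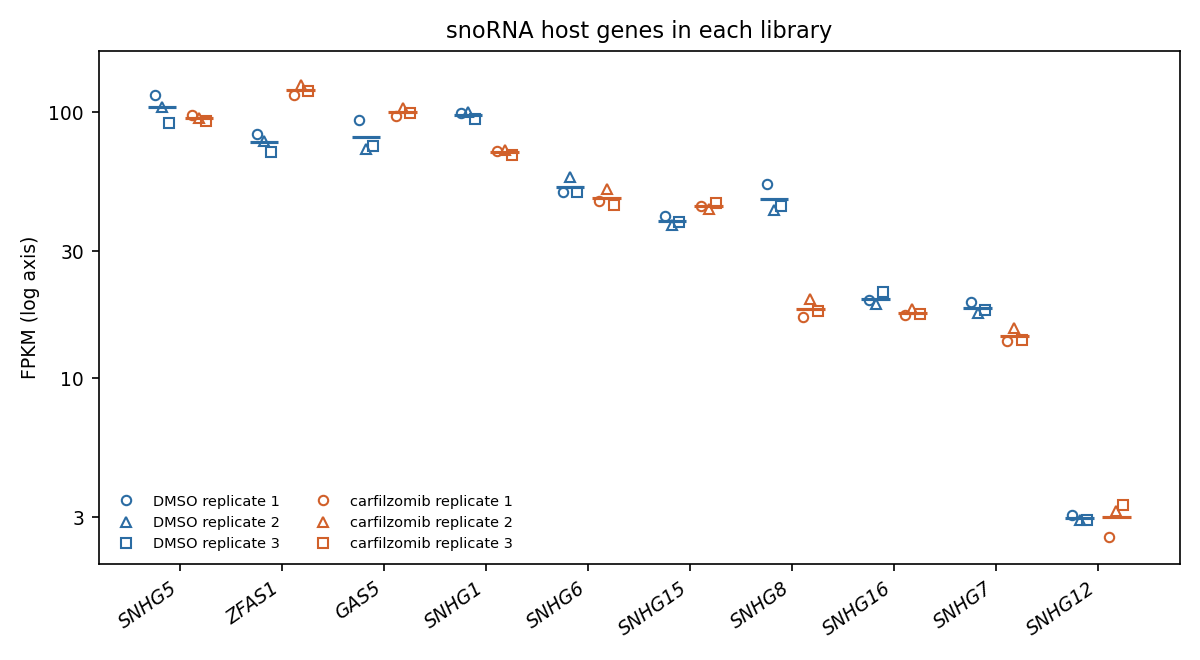
FPKM (log axis) of the 10 snoRNA host genes in each library, with DMSO in blue and carfilzomib in orange. Symbols are replicates 1, 2 and 3 and bars are means of 3. SNHG8 and SNHG1 sit lower and ZFAS1 higher in all 3 carfilzomib libraries, and SNHG12 is near 3 FPKM in both groups.

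Among hosts whose named snoRNAs are all box C/D, ZFAS1, a host that lies next to the promoter of ZNFX1, rose most. Its level was 82.9, 77.7 and 71.1 FPKM in DMSO replicates 1, 2 and 3 and 116, 127 and 120.0 FPKM in carfilzomib replicates 1, 2 and 3. Every carfilzomib library lay above every DMSO library, at means of 77.2 ± 5.93 and 121 ± 5.33 FPKM (SD, n = 3). The ratio was 1.57 and the log2 difference 0.64 (SE 0.0538, adjusted p = 1.72e-06). The reads behind it numbered 2903 to 3356 per DMSO library and 4692 to 5010 per carfilzomib library. Its difference was larger than that of 87.8% of all tested genes.

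SNHG1, first described as the host of SNORD22, fell. DMSO replicates 1 to 3 had 99.5, 100.2 and 93.9 FPKM, and carfilzomib replicates 1 to 3 had 71.6, 71.8 and 68.7 FPKM. The groups did not overlap and the spread within each was small, with SDs of 3.46 and 1.73 FPKM around means of 97.8 and 70.7 FPKM. The ratio was 0.722 and the log2 difference -0.46 (SE 0.0345, adjusted p = 7.04e-07). The fall rested on 17665 DMSO and 12559 carfilzomib reads, the most of any host in the DMSO libraries.

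The other 3 hosts of box C/D snoRNAs alone moved less. SNHG16, the host of the SNORD1 family, had 19.7, 19.0 and 21.1 FPKM with DMSO and 17.2, 18.2 and 17.4 with carfilzomib, a log2 difference of -0.17 (SE 0.0447, adjusted p = 0.00569). The groups did not overlap, but the adjusted p was 0.124 under median-of-ratios scaling (log2 difference -0.081) and 0.0553 under limma-voom on recovered reads, past the threshold for a call. Its 17 alternatives gave 0.00397 to 0.124. SNHG5, the host of the SNORD50 pair, had 116, 105 and 91.3 FPKM with DMSO and 97.4, 95.01 and 92.6 with carfilzomib. The DMSO libraries spread over a wider range than the carfilzomib libraries and overlapped them, at a log2 difference of -0.12 (SE 0.0707, adjusted p = 0.132). SNHG6, the host of SNORD87, had 50.2, 57.1 and 50.3 FPKM with DMSO and 46.5, 51.2 and 44.7 with carfilzomib, a log2 difference of -0.14 (SE 0.0606, adjusted p = 0.0512). Replicate 2 was the highest of both groups and the groups overlapped. SNHG5 depended on which DMSO library was left out, at a log2 difference of -0.21 (adjusted p = 0.00287, a call) without replicate 3 and of -0.041 (adjusted p = 0.485) without replicate 1. SNHG6 passed when DMSO replicate 1 (-0.17, adjusted p = 0.0342), DMSO replicate 3 (-0.17, adjusted p = 0.0429) or carfilzomib replicate 2 (-0.20, adjusted p = 0.0133) was left out, and shrank to -0.082 (adjusted p = 0.198) without DMSO replicate 2. Median-of-ratios scaling brought SNHG5 to -0.032 and SNHG6 to -0.052. Across 17 alternatives the adjusted p ran from 0.00287 to 0.701 for SNHG5 and 0.00374 to 0.452 for SNHG6.

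Of the hosts of H/ACA snoRNAs alone, SNHG8, which carries SNORA24, fell furthest of all 10. It had 53.6, 43.0 and 44.4 FPKM in DMSO replicates 1 to 3 and 17.02, 19.9 and 17.9 FPKM in carfilzomib replicates 1 to 3. The lowest DMSO library was more than 2 times the highest carfilzomib library, and the means were 47.0 ± 5.77 and 18.3 ± 1.48 FPKM (SD, n = 3). The ratio was 0.389 and the log2 difference -1.31 (SE 0.0810, adjusted p = 1.74e-07). Only 3.90% of all tested genes had a lower difference. Without DMSO replicate 1, in which it was highest, the ratio was 0.418.

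SNHG7, the host of the SNORA17 pair, fell too, from 19.3, 17.5 and 18.1 FPKM with DMSO to 13.9, 15.4 and 13.9 with carfilzomib. The groups did not overlap, and the log2 difference was -0.33 (SE 0.0515, adjusted p = 1.92e-04). SNHG15, the host of SNORA9 and known as a short-lived transcript, rose from 40.7, 37.8 and 38.7 FPKM to 44.5, 43.1 and 45.6. Its lowest carfilzomib library lay above its highest DMSO library, at a log2 difference of 0.18 (SE 0.0373, adjusted p = 0.00120). The 3 H/ACA hosts held 1 rise and 2 falls. The 5 box C/D hosts also held 1 rise and 2 falls, with SNHG16 among the falls. Of all tested genes, 36.7% were called higher and 44.9% lower, and so few hosts allow no comparison of the classes.

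GAS5 and SNHG12 carry both kinds of snoRNA. In GAS5 this rests on 1 H/ACA snoRNA, SNORA103, the one that overlaps an exon, beside 10 SNORDs. GAS5 rose, from 93.8, 72.4 and 74.8 FPKM in DMSO replicates 1 to 3 to 96.9, 103 and 98.8 FPKM in carfilzomib replicates 1 to 3. DMSO replicate 1 was close to the carfilzomib libraries, 93.8 against a lowest of 96.9, and far from the other DMSO libraries. Means were 80.3 ± 11.7 and 99.7 ± 3.37 FPKM (SD, n = 3), a ratio of 1.24, or 1.36 without DMSO replicate 1. The log2 difference was 0.32 (SE 0.0815, adjusted p = 0.00466). With a library left out it ran from 0.25 without DMSO replicate 2 (adjusted p = 0.0182) to 0.43 without DMSO replicate 1 (adjusted p = 2.81e-06). SNHG12 was the least expressed host, with 3.06, 2.93 and 2.94 FPKM with DMSO and 2.53, 3.18 and 3.33 with carfilzomib. Its groups overlapped and its log2 difference was 0.01 (SE 0.0792, adjusted p = 0.932), on 211 to 277 reads per library.

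**Figure D3:**
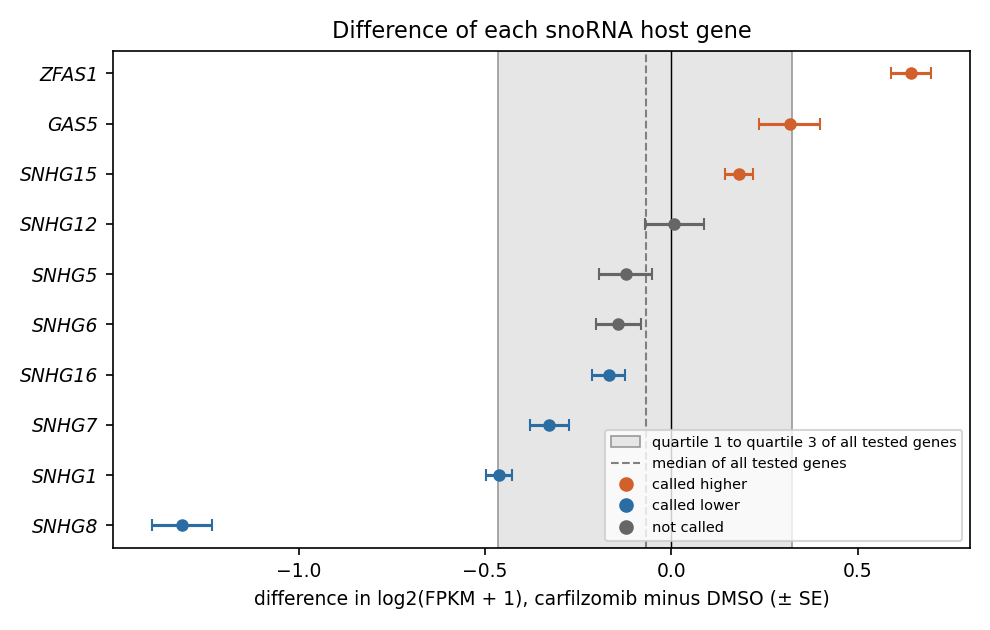
Difference in log2(FPKM + 1), carfilzomib minus DMSO, of each snoRNA host gene (points, ± SE, 3 libraries a group). Orange is called higher, blue called lower and grey not called. The shaded band spans quartile 1 to quartile 3 of all 11153 tested genes (-0.46 to 0.32) and the dashed line is their median (-0.07). SNHG8 and ZFAS1 lie clear of the band at -1.31 and 0.64.

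The spread between DMSO libraries was wider than counting error in every host but SNHG12. In DMSO libraries the coefficient of variation was 14.6% for GAS5, 12.3% for SNHG8 and 11.9% for SNHG5, where counting alone gives 2.72%, 2.95% and 2.19%. In carfilzomib libraries these hosts, named for their wide DMSO spread, varied by 3.38%, 8.11% and 2.54%. Of the 10 hosts, SNHG7 and SNHG12 alone varied more with carfilzomib, at 6.02% and 14.1% against 4.95% and 2.46% with DMSO. DMSO replicate 1 was the highest DMSO library in 7 of the 10 hosts, against 31.1% of all tested genes, and carfilzomib replicate 2 was the highest of its group in 7 of 10, against 33.1%. The part of these libraries in the differences was measured by leaving each out. ZFAS1, GAS5, SNHG15, SNHG8, SNHG1 and SNHG7 kept their direction and call in all 17 alternatives.

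The order of the hosts by level differed between the groups. Per length, SNHG5 led with DMSO (104 FPKM), followed by SNHG1 (97.8), GAS5 (80.3) and ZFAS1 (77.2). The ranges of SNHG5 and SNHG1 overlapped, as did those of GAS5 and ZFAS1, whereas SNHG1 lay apart from GAS5. With carfilzomib, ZFAS1 led (121 FPKM) and lay apart from GAS5 (99.7), whose range overlapped that of SNHG5 (95.02), and SNHG1 came next at 70.7. SNHG8 lay apart above SNHG15 with DMSO (47.0 and 39.0 FPKM) and apart below it with carfilzomib (18.3 and 44.4 FPKM). SNHG12 was last in both groups. These levels rest on the gene lengths behind the FPKM values, which came out at 425 bases for GAS5 and 2693 bases for SNHG7, while the exons of all GENCODE 29 transcripts joined span 3631 and 4345 bases. Ratios within a gene do not depend on that length.

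The hosts together held 0.0526 ± 0.00248% of all reads with DMSO and 0.0501 ± 0.00140% with carfilzomib (SD, n = 3). The single values were 0.0553, 0.0522 and 0.0504% in DMSO replicates 1 to 3 and 0.0493, 0.0518 and 0.0494% in carfilzomib replicates 1 to 3. The groups overlapped, and the exact permutation test (two-sided, 20 assignments of the labels) gave p = 0.2, where 0.1 is the smallest that 3 against 3 allows. The difference of -0.00251 percentage points became -0.00118 without DMSO replicate 1. SNHG1 alone gave 17665 and ZFAS1 9427 of the DMSO reads, against 12559 and 14534 with carfilzomib.

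Other noncoding snoRNA hosts also moved both ways. Of 20 listed, 18 had a row and 15 were tested, of which 6 rose, 5 fell and 4 did not pass, with a median difference of 0.14. With median-of-ratios scaling 6 rose and 2 fell, with quantile normalization 8 rose and 4 fell, and without DMSO replicate 2 the number of falls was 3. SNHG17 rose from 7.92 ± 0.857 to 16.8 ± 0.542 FPKM (log2 difference 1.00, SE 0.0667, adjusted p = 3.08e-07). SNHG20 went from 0.482 ± 0.0202 to 1.93 ± 0.135 FPKM, a ratio of 4.00 that the log2 scale with its added 1 shows as 0.98. It passed the filter through its carfilzomib libraries. SNHG3, whose locus adjoins RCC1, fell from 8.19 ± 0.293 to 5.01 ± 0.735 FPKM, and SNHG25 from 10.4 ± 3.98 to 4.78 ± 2.57 FPKM with a wide spread (SE 0.326, adjusted p = 0.0159).

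Protein-coding snoRNA hosts included some of the chaperone genes. In the 32 with a test, 18 rises and 8 falls were called and 6 did not pass (median 0.14), and with quantile normalization 14 rose and 13 fell. HSPA8, the constitutive HSP70 chaperone and host of the SNORD14 family, went from 186 ± 6.55 to 1007 ± 32.9 FPKM, and TCP1, a chaperonin subunit, from 145 ± 6.44 to 310 ± 5.41. SNX5, a sorting nexin, fell from 112 ± 1.98 to 64.1 ± 1.71 FPKM, and RCC1, the exchange factor of the GTPase Ran, from 35.7 ± 1.78 to 22.6 ± 0.345.

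Ribosomal protein genes, which share the TOP start with many hosts, moved by small amounts. The 78 tested ribosomal protein genes gave 35 rises, 14 falls and 29 that did not pass, 0 by 2-fold or more, with differences from -0.49 to 0.43. The split was 50 higher and 5 lower with median-of-ratios scaling, where all genes gave 4652 higher and 4418 lower. It turned to 21 higher and 29 lower with quantile normalization, where all genes gave 4546 higher and 4543 lower. RPL39 (392 ± 49.2 to 525 ± 23.6 FPKM) and RPS19 (129 ± 17.5 to 164 ± 3.28) rose furthest, and RPS2 (1633 ± 25.5 to 1159 ± 29.1) and RPL41 (860 ± 53.6 to 675 ± 15.4) fell furthest. Many ribosomal protein genes have near-identical pseudogenes, so their values are uncertain. Of 13 translation factors and other genes known for TOP starts, 9 rose, 1 fell and 3 did not pass, or 8 and 4 with quantile normalization. TPT1, itself a snoRNA host, rose from 220 ± 10.02 to 349 ± 6.11 FPKM and the initiation factor subunit EIF3H from 32.1 ± 0.0933 to 47.9 ± 0.648, while HNRNPA1, a splicing regulator, fell from 310 ± 5.95 to 207 ± 3.62.

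Genes of snoRNP proteins and of nonsense-mediated decay were also called in both directions. Of 20 snoRNP core and assembly genes, 11 rose, 4 fell and 5 did not pass (median 0.17), or 13 and 2 with median-of-ratios scaling. GAR1, of the H/ACA core, rose from 22.6 ± 1.55 to 44.1 ± 4.43 FPKM and RUVBL2, an assembly ATPase, from 44.4 ± 0.936 to 69.0 ± 0.828. FBL, fibrillarin, the methyltransferase of box C/D particles, fell from 124 ± 2.19 to 89.6 ± 1.82 FPKM, and NHP2, also of the H/ACA core, from 62.9 ± 5.91 to 52.2 ± 3.06. Of 20 decay factors, 14 rose, 3 fell and 3 did not pass (median 0.24). SMG8, a regulator of the decay kinase SMG1, went from 9.26 ± 0.276 to 18.6 ± 1.29 FPKM and EIF4A3, of the exon junction complex, from 37.9 ± 3.32 to 58.3 ± 2.24, while MAGOHB and NCBP1 fell to 6.37 ± 0.215 and 12.7 ± 0.322 FPKM from 8.06 ± 0.279 and 15.5 ± 0.107. All these counts stand beside 36.7% higher and 44.9% lower among all genes tested.

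**Figure D4:**
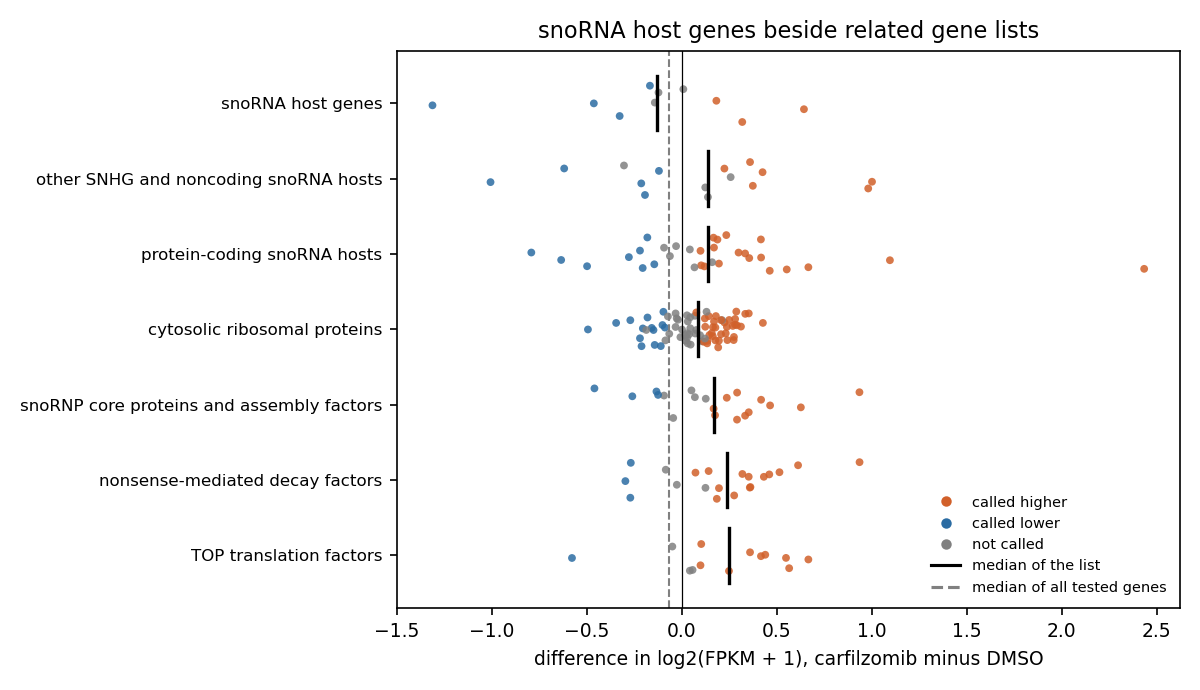
Difference in log2(FPKM + 1), carfilzomib minus DMSO, of each tested gene in the snoRNA host genes and 6 related lists. Each point is a gene, coloured by its call, black bars are list medians and the dashed line is the median of all tested genes (-0.07). The hosts span -1.31 to 0.64, and the ribosomal protein genes lie between -0.49 and 0.43.

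Neighbouring protein-coding genes were called in the same direction as their host in some pairs and in the other direction in others. By RefSeq order the 10 hosts had 24 reported pairs with a nearest or overlapping protein-coding gene. In 10 of them the neighbour was tested, with 3 called higher and 5 lower. These counts lie near the shares of all tested genes, 36.7% higher and 44.9% lower. ZFAS1 and ZNFX1, a helicase-like gene that lies head to head with it, both rose, ZNFX1 from 9.86 ± 0.528 to 15.7 ± 0.897 FPKM (log2 difference 0.62, against 0.64 for ZFAS1). SNHG1 fell (-0.46) while both of its neighbours rose, SLC3A2, an amino acid transporter subunit that lies head to head with it, from 184 ± 7.85 to 283 ± 3.84 FPKM and WDR74 from 11.8 ± 0.529 to 31.4 ± 1.14. GAS5 rose (0.32) while its neighbour SERPINC1, antithrombin, fell by 1.17 on the log2 scale. SNHG7 and its neighbours AGPAT2 (75.3 ± 2.36 to 40.1 ± 2.32 FPKM) and DIPK1B (8.45 ± 0.0672 to 3.50 ± 0.209) fell, and DIPK1B overlaps it. SNHG15 rose (0.18) and CCM2 fell by 0.17 on the log2 scale (adjusted p = 0.0145). SNHG12 and the overlapping TRNAU1AP did not pass, while RCC1, which also neighbours SNHG12, fell by 0.64 on the log2 scale. SNHG5 and SYNCRIP did not pass. The pairs were not tested against each other. The library kit marks strand, but use of strand in the counting is not stated, and values of overlapping genes (SNHG6 and MCMDC2, SNHG7 and DIPK1B, SNHG12 and TRNAU1AP, GAS5 and ZBTB37) are uncertain.

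**Figure D5:**
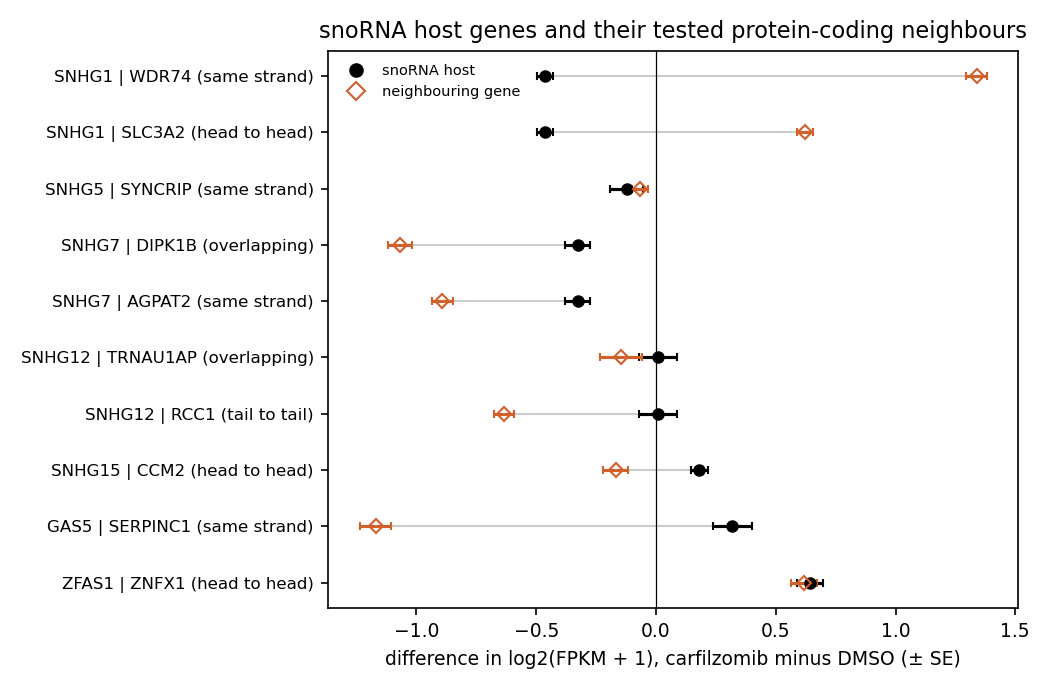
Difference in log2(FPKM + 1), carfilzomib minus DMSO (± SE), of a snoRNA host (black circles) and each of its reported and tested protein-coding neighbours (orange diamonds), with the orientation of the pair by strand. The ZFAS1 and ZNFX1 points lie together near 0.6, while those of SNHG1 and of its neighbours lie on opposite sides of 0.

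Genes outside the hosts with the most similar pattern were found by the root mean square distance between log2 deviations over the 6 libraries. Because they were picked for closeness in these same libraries, their similar differences follow from the selection. For ZFAS1 these were MAEA (distance 0.0347), COA6 (0.0353) and SEM1 (0.0382), a small proteasome subunit, which rose by 0.60, 0.68 and 0.66 on the log2 scale. For SNHG8 they were MCM6 (distance 0.0739), a subunit of the replicative helicase, LRP3 (0.0744) and IMPA2 (0.0749), with log2 differences of -1.26, -1.35 and -1.31.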

How the data were processed

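RNA sequencing of 6 Huh7 libraries, 3 with DMSO and 3 with carfilzomib, was grouped by the treatment labels. The authors deposited FPKM values in a single table, a column for each library. Tools named, per the submitters' processing notes, are HTSeq, DESeq2, R 3.2.0, HISAT2 and fastp, with no role or order, and the build is GRCm39, a mouse build, although the rows are human gene symbols. RNA was prepared with a stranded mRNA kit, per the labels' protocols.

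Genes with a mean of at least 1 FPKM (11153 of 19021) were tested as log2(FPKM + 1) with limma 3.58.1 in R 4.3.3 (mean-variance trend, two-sided, Benjamini-Hochberg over all tested genes, calls at an adjusted p under 0.05). All adjusted p-values are from limma. Whole reads, gene lengths and library totals were recovered from FPKM ratios between libraries (19018 rows came out whole to a relative tolerance of 1e-12), and counting error is taken from them. They cover counting error only, since reads without molecular identifiers are not independent molecules. Both steps were tested on simulated data. Within each group, every pair of libraries differed beyond sampling noise (chi-square over degrees of freedom 3.67 to 7.19), and all were kept as replicates.

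The members and gene lists were chosen with earlier results of these data known. Named genes were all members, the 2 largest rises and 2 largest falls called in each list, nearest protein-coding neighbours, and the 3 genes most like ZFAS1 and SNHG8. Of the neighbour pairs, 1 is not reported here. Overlapping neighbours and TATAA were added after the data were seen. The 17 alternatives were pseudocounts of 0.1 and 5, other filters, scalings and fits, a replicate block, limma-voom on recovered reads and each library left out.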

Additional observations from a re-analysis of the deposited data

How the results depend on the processing

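Of the 7 host calls, 6 held in all 17 alternatives and SNHG16 lost its call in 2, as given above. Counts of hosts called higher were 3 throughout, and lower 4 (4 to 6 with a library left out, 3 with median-of-ratios scaling or limma-voom, 5 with a mean of at least 5 FPKM, where SNHG6 passed at an adjusted p of 0.0407, 6 with quantile normalization or the replicate block). SNHG12, which had no call, changed sign without DMSO replicate 2 (-0.000677), carfilzomib replicate 2 (-0.025) or carfilzomib replicate 3 (-0.050), in a range up to 0.098 with a library left out. With a mean of at least 5 FPKM, 3 other noncoding hosts were higher, 3246 of all genes were lower, and SNHG12 was not tested. Median-of-ratios scaling gave 2 lower among other noncoding hosts, 5 among ribosomal protein genes and 2 among snoRNP genes, and limma-voom 3, 9 and 2. Quantile normalization gave 21 ribosomal protein genes higher and 29 lower, 13 protein-coding hosts lower and 4 TOP translation factors lower. With a library left out, lower counts were 3 to 5 for other noncoding hosts and 1 to 2 for TOP translation factors. The cause of these shifts was not tested. Same-numbered libraries did not deviate together (correlations -0.0121, -0.00341 and 0.0126 across genes). That shows no strong effect shared by replicate number, but cannot settle whether the samples were paired. With the replicate number as a block, hosts called were 3 higher and 6 lower, with SNHG5 (adjusted p = 0.0483) and SNHG6 (adjusted p = 0.00374) added. Counting error is largest for SNHG12, at a coefficient of variation of 6.32% per DMSO library and 6.33% per carfilzomib library. Its libraries varied by 2.46% with DMSO and by 14.1% with carfilzomib, the latter beyond counting error.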
